A study of Mus musculus with 12 samples.

Results

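Zfp genes are mouse genes whose symbol begins with Zfp and a digit, for zinc finger protein. They were taken, by that spelling alone, from 3 lists made with Mirlet7d, which is a let-7 microRNA, in the mouse lung epithelial line MLE-12. There were 119 of them among the 5714 genes on any list. The mRNA candidates of a Mirlet7d pull-down held 43 Zfp genes of 1509, as 53 of 1964 transcripts. The promoter-associated non-coding RNA (ncRNA) candidates of the same pull-down held 41 of 1624 genes, as 62 of 2432 entries. The nearest genes of the ChIRP-seq peaks held 42 of 3192 genes, with 48 of 4286 peaks.

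The series has 12 libraries with 1 in each group, and values of 3 of them stand in the tables used here. For the pull-down library, MLE-12 cells received biotinylated Mirlet7d at 25 nM, were harvested after 48 h, and the RNA held on streptavidin beads was sequenced. The pull-down input is total RNA of MLE-12 cells under the same description, and its label names no capture. For ChIRP-seq, chromatin of MLE-12 cells was incubated with 150 pmol of biotinylated oligonucleotides tiling mature Mirlet7d, and the DNA that came with them was sequenced. The labels name an input library for ChIRP-seq too, and no capture with another microRNA or with unrelated probes was analysed here, so what Mirlet7d binds and what the capture binds without it cannot be told apart. With 1 library per group no value below has a replicate error. The tables are selected lists, so MLE-12 markers could not be read against all expressed genes.

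Most Zfp proteins carry C2H2 zinc fingers, small folds around a zinc ion that read DNA base by base. Many also carry a KRAB domain, which recruits Trim28 and, through it, histone methylation and DNA methylation that silence transposable elements and imprinted genes. Genes of this kind lie in clusters of closely related copies. A few genes with the Zfp name are of the CCCH class instead, which binds AU-rich elements in mRNA and hastens its decay. Mature microRNAs of the let-7 family guide Argonaute to mRNAs through their seed, bases 2 to 8.

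The labels do not say which arm of the Mirlet7d hairpin was used, so both mature sequences are shown, from RefSeq on GRCm38.p6 (let-7d-5p at chr13:48536078-48536099, minus strand, and let-7d-3p at chr13:48536024-48536045, minus strand), with the seed in capitals.
mmu-let-7d-5p: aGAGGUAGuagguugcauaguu
mmu-let-7d-3p: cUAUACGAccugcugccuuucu

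A promoter here is the stretch from 250 bases before to 50 bases after a RefSeq start, and it was found for 96 of the 119 genes. A search of promoters, chosen after the lists had been seen, looked on both strands for ACTACA followed after any 2 bases by TCCC (GGGA and, after 2 bases, TGTAGT on the other strand), a form of the site known for Zfp143, also called Staf, a zinc finger activator of transcription. These letters stood in the promoter of 59 of 332 Zfp genes (17.8%) and of 563 of 27025 genes of all kinds (2.08%). Among genes on the mRNA list they stood in 11 of 38, among those on the promoter ncRNA list in 4 of 34, and among those nearest to a ChIRP peak in 4 of 30. All 6 Zfp genes of chromosome 13 on the mRNA list had them, as did all 3 genes from a cluster of chromosome 11 that are described below. Zfp genes of chromosome 13 had them in 21 of 31 cases (67.7%) whether listed or not, and those of chromosome 11 in 5 of 17. The remaining 2 matches among genes on the mRNA list were on chromosome 7. None of the 41 Zfp genes of chromosome 17 with a promoter had them. A match is a description of letters and not a measured binding site.

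Windows of 60 bases around the match are shown for these 9 genes, which were picked for having a match and lying in clusters on the mRNA list. Other neighbours on that list lack it: the promoters of Zfp418, Zfp772 and Zfp809 had no match. A further promoter of Zfp708 had none either. No link between the match and the listing is read from the windows. The letters are in the direction of the gene, from RefSeq on GRCm38.p6, and the capitals mark the match. The chromosome 13 windows are Zfp708 at chr13:67081562-67081621, minus strand, Zfp455 at chr13:67194426-67194485, plus strand, Zfp456 at chr13:67375797-67375856, minus strand, Zfp874a at chr13:67451622-67451681, minus strand, Zfp65 at chr13:67729156-67729215, minus strand and Zfp273 at chr13:67813725-67813784, plus strand. The chromosome 11 windows are Zfp879 at chr11:50841577-50841636, minus strand, Zfp2 at chr11:50916143-50916202, minus strand and Zfp354b at chr11:50931658-50931717, minus strand.
Zfp708: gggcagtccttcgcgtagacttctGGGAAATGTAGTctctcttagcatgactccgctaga
Zfp455: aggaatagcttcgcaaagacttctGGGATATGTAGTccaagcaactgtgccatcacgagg
Zfp456: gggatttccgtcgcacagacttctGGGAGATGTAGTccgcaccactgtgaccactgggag
Zfp874a: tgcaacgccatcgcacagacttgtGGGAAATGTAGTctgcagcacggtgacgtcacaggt
Zfp65: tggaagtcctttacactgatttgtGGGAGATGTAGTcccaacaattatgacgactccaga
Zfp273: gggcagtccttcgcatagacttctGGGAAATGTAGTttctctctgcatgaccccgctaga
Zfp879: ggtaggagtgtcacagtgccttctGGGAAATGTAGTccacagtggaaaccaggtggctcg
Zfp2: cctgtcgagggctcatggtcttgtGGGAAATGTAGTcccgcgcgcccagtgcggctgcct
Zfp354b: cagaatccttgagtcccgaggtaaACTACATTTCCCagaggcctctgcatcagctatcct
In Zfp354b the match reads along the gene, and in the other 8 it lies on the opposite strand. Counted from the start, the match began between -69 and -2 bases in these 9 genes.

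Values of the pull-down are RPKM, reads scaled to the length of the listed span and to the depth of the library, and the fold is pull-down RPKM over input RPKM. The lowest deposited fold was 2.5 in both lists, so every listed Zfp gene is higher in the pull-down by selection and nothing is read from that direction. Multiplied by span, the values fell on whole read numbers under denominators of 23.9 M (input) and 42.0 M (pull-down) for mRNAs. For ncRNAs the denominators were 9.66 M and 15.0 M reads. Each is the smallest denominator that a search found to give whole numbers, and the read numbers and intervals below rest on it. The same 2 libraries have different denominators in the 2 tables, so none is taken as the depth of a library. Levels are therefore not compared between the 2 tables. A 95% exact interval accompanies the fold of each entry for which reads of both libraries were recovered. It covers counting error only, since PCR copies could not be separated. Reads that match several related zinc finger genes could be split among them, and how they were assigned is not given in the sources used here, so values within clusters are uncertain in that respect.

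Of the 403 Zfp genes with a curated RefSeq transcript, 43 (10.7%) were on the mRNA list, 41 (10.2%) on the promoter ncRNA list and 42 (10.4%) were nearest to a ChIRP peak. Over the 26220 curated genes of all kinds, 5.48% were on the mRNA list, 5.86% on the promoter ncRNA list and 11.4% were nearest to a peak. The shares of Zfp genes were thus above the background on both RNA lists and near it in ChIRP-seq. The 26220 genes include genes with non-coding transcripts only, while 117 of the 119 Zfp genes are protein-coding. The background of the mRNA list is therefore not one of protein-coding genes alone. Peaks were spread unevenly, with 62.2% on chromosomes 6, 8, 11, 16 and 19, and the shares were not adjusted for chromosome. Genes expressed in these cells could not be separated from the rest in either share. The other C2H2 families, taken by symbol (Zbtb, Zscan, Zkscan, Znf, Klf, Prdm, Sall, Ikzf, Gli, Egr, Zic, Zik and Zim), had 10, 12 and 18 of 128 genes on these lists in the same order.

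Zfp mRNAs had a median fold of 6.19, against 4.93 over all listed transcripts, and a median input level of 0.064 RPKM against 0.014. Several Zfp genes are listed with transcripts that share reads. With only the highest fold of each gene kept, the Zfp median was 5.21. That median was not computed for all genes, so the Zfp folds are not called higher than those of the list. The Zfp folds ran from 3.24 to 7.88 between quartiles, and those of all transcripts from 3.13 to 10.7. A fold of 10 or more was reached by 11 of 53 Zfp transcripts, from 9 genes, where the background was 26.7%. An input of 0.005 RPKM or less was found for 10 of 53 Zfp transcripts and for 37.1% of all. In the Zfp transcripts this was at most 1 read where it could be recovered, and spans differ between the groups (upper quartile 24197 bases for Zfp and 56574 for all), so the same RPKM can stand for more reads elsewhere in the list.

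**Figure D1:**
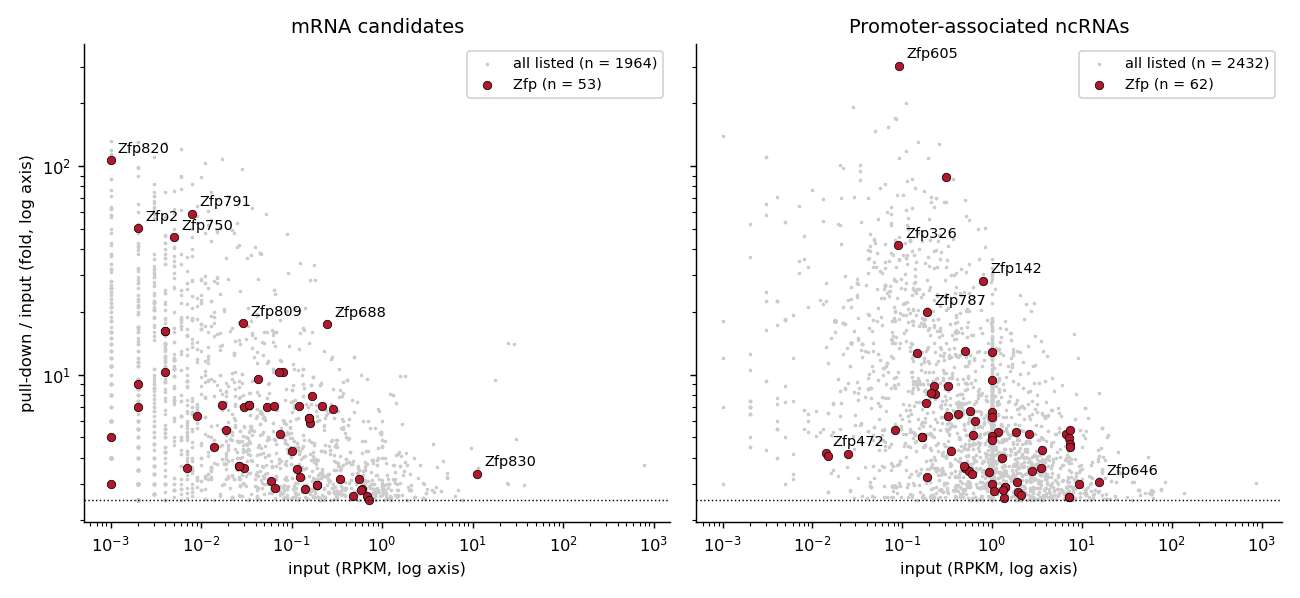
Fold of pull-down over input against input level (RPKM, both axes log) for each listed transcript, with mRNA candidates on the left and promoter-associated ncRNAs on the right; Zfp entries are dark, all others grey, and the dotted line is the listing limit of 2.5. The Zfp mRNAs with folds above 40 sit at inputs of 0.008 RPKM or less, and Zfp830 and Zfp646 are the Zfp entries with the highest input on either side.

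The highest Zfp mRNA folds rested on 1 or 2 input reads. Zfp820 stood at 0.001 RPKM in input and 0.107 RPKM in the pull-down, a fold of 107 that rounding of the input alone could lower to 71. Zfp791 stood at 0.008 and 0.474 RPKM, from 2 and 199 reads, a fold of 59.25 (interval 15.4 to 470). Zfp2 had 1 input read and 74 pull-down reads, 0.002 and 0.101 RPKM, a fold of 50.5 (7.31 to 1681). The intervals of Zfp791 and Zfp2 are wide, and Zfp820 has none because its pull-down reads could not be recovered. Zfp750, a regulator of epidermal differentiation, had 1 and 80 reads, 0.005 and 0.228 RPKM, a fold of 45.6 (7.92 to 1816). Zfp879 was listed with 2 transcripts of the same reads, 1 and 26, at 0.004 and 0.065 RPKM, a fold of 16.25 (2.42 to 605). For Zfp13 the 2 transcripts also shared their reads, 1 and 18, yet were listed with folds of 9 and 10.25, a difference made by rounding of the RPKM. Their interval, 1.61 to 426, reached below the listing limit.

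Firmer high folds came from Zfp809, Zfp688 and Zfp715. Zfp809, a KRAB zinc finger protein known to bring Trim28 to retroviral DNA, stood at 0.029 RPKM in input and 0.511 in the pull-down, from 12 and 373 reads, a fold of 17.6 (9.98 to 34.5). Zfp688 stood at 0.246 and 4.291 RPKM, from 18 and 553 reads, a fold of 17.4 (10.9 to 29.6). Zfp715 had 29 and 526 reads in both of its listed transcripts, with 0.081 and 0.837 RPKM in the first, a fold of 10.3 (7.08 to 15.5). The intervals of these 3 genes overlapped each other, so no order among them is given. Zfp599, the neighbour of Zfp809 on chromosome 9, had 30 and 227 reads and a fold of 4.29 (2.93 to 6.51), and its interval lay below that of Zfp809.

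An interval could be computed for 37 of the 53 Zfp transcripts, of 32 genes. It lay wholly above 1 in 37 of 37, where the background was 92.8%, and wholly above 2.5 in 21 of 37, from 19 genes, where the background was 62.2%. The share above 2.5 was thus close to that of the list. Besides the genes above, the 19 included Zfp28 at 9.49 (5.30 to 18.6), Zfp128 at 7.88 (5.90 to 10.8), Zfp772 at 7.07 (5.13 to 10.0), Zfp511 at 6.88 (4.71 to 10.4) and Zfp418 at 5.21 (3.33 to 8.46). Zfp426, a gene with 4 listed transcripts whose spans nearly coincide, had folds between 5.89 and 7.11 and inputs between 0.121 and 0.161 RPKM. In 3 of them the input reads were the same 89, so its entries are not separate measurements.

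Zfp830, a gene needed in the early mouse embryo, had by far the highest level of the Zfp mRNAs. It stood at 11.2 RPKM in input and 37.7 RPKM in the pull-down, from 879 and 5190 reads, and its fold of 3.35 (3.12 to 3.60) was the most precise of all Zfp folds. The next highest input among Zfp mRNAs was that of Zfp821, 0.709 RPKM, whose fold of 2.51 (2.22 to 2.84) lay just inside the listing limit. Zfp251 had 255 and 1426 reads and a fold of 3.18 (2.78 to 3.64), and Zfp800 had 311 and 1557 reads and a fold of 2.84 (2.51 to 3.22). The folds of the 8 Zfp transcripts with more than 100 input reads ran from 2.51 to 3.35. That range was not computed over all listed transcripts, so it is not read as a trait of Zfp genes. In other C2H2 families, Klf6 had 604 input reads and a fold of 3.02, and Prdm4 had 450 and 3.40. The 2 transcripts of Zbtb14 had 245 and 219 input reads and folds of 3.41 and 3.70.

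**Figure D2:**
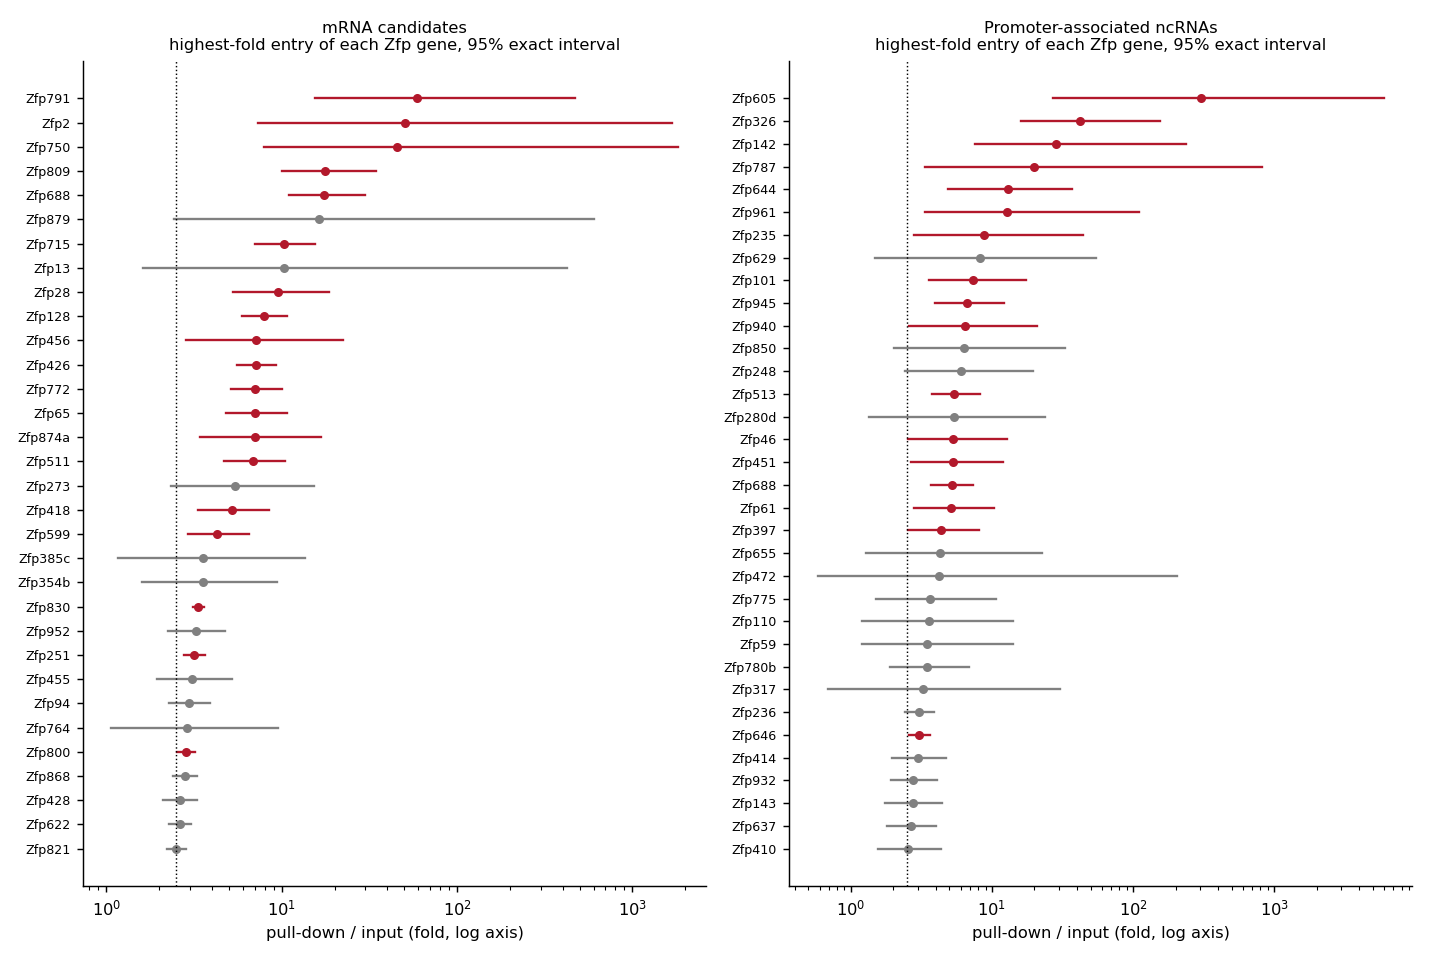
Fold of pull-down over input (log axis) with its 95% exact interval for the highest-fold entry with recovered reads of each Zfp gene, mRNAs on the left and promoter-associated ncRNAs on the right; points stand for genes, the dotted line is 2.5, and dark genes have an interval wholly above it. Zfp830 and Zfp646 have the narrow intervals of well-covered entries, and Zfp2, Zfp750 and Zfp605 the wide ones of 1 input read.

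A group of listed mRNAs came from the zinc finger cluster of chromosome 13, between positions 67170336 and 67927937 on mm9. Of the 6 listed genes there, Zfp273, Zfp455, Zfp456, Zfp708 and Zfp874a carry former names of the Rslcan type, as relatives of regulators of sex-limited liver genes, and Zfp65 was once KRAB5. Their 8 transcripts had inputs of 0.017 to 0.064 RPKM and pull-down levels of 0.095 to 0.452 RPKM, with folds of 3.08 to 7.12. Zfp65 had 29 and 360 reads in its shorter transcript, a fold of 7.06 (4.82 to 10.7). Zfp874a had 8 and 99 reads, a fold of 7.03 (3.43 to 16.7), and Zfp456 had 5 and 62 reads, a fold of 7.12 (2.86 to 22.4). These 3 folds lie within each other's intervals. Zfp455 was lower at 3.08 (1.94 to 5.21), with 21 and 115 reads, and its interval still overlapped those of Zfp65, Zfp874a and Zfp456. Zfp273 had 6 and 57 reads and a fold of 5.42 (2.33 to 15.3), and the 2 transcripts of Zfp708, listed with the same span, had a fold of 3.65 without an interval.

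On chromosome 11, between positions 50645537 and 50745135 on mm9, Zfp879, Zfp2 and Zfp354b lie close together. Zfp354b, whose alias is Kid2, had 7 and 44 reads, 0.030 and 0.107 RPKM, a fold of 3.57 (1.59 to 9.39). Pull-down levels of the 3 genes were alike, from 0.065 to 0.107 RPKM, while their inputs ran from 0.002 to 0.030 RPKM. Zfp2 and Zfp879 both had 1 input read and differed in pull-down reads, 74 against 26, while Zfp354b had 7 input reads. On chromosome 17 the mRNA list held Zfp820, Zfp942, Zfp946, Zfp13 and Zfp952, with folds from 3.24 to 107.

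Zfp143 stood at 0.142 RPKM in input and 0.403 RPKM in the pull-down, a fold of 2.84. Zfp622, a cytoplasmic factor of the large ribosomal subunit, had 230 and 1062 reads, 0.683 and 1.790 RPKM, a fold of 2.62 (2.27 to 3.04). Zfp365, a protein of the centrosome, had a fold of 3.15, and Zfp521, a regulator of blood and neural progenitors, 4.50. The weakest basis was that of Zfp831, at 0.001 and 0.003 RPKM, where rounding could bring the fold from 3 to 1.67. It was the 1 Zfp transcript of 53 whose fold could fall below 2.5 by rounding, against 10.5% of all listed. The remaining Zfp mRNAs were Zfp94, Zfp277, Zfp385b, Zfp385c, Zfp428, Zfp735, Zfp764 and Zfp868, with folds between 2.63 and 7.

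Promoter-associated ncRNAs are transcripts, named by NONCODE identifiers, that the deposited table assigns to the start of a gene. They are not the mRNA of that gene, and the table gives no strand. At Zfp genes their median fold was 5.00, against 5.12 over all 2432 entries, and their median input was 0.965 RPKM. A fold of 10 or more was reached by 8 of 62 entries, from 7 genes, where the background was 25%. The share at Zfp genes, 12.9% of entries, was thus below that background, and the difference was not tested. Several entries overlap others of the same gene, so they are not separate measurements. The share by gene was not computed over the whole list.

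Zfp605 had the highest fold of the whole promoter ncRNA list. The 4 entries overlap within 1512 bases at its start on chromosome 5, and they fell into a pair with ordinary and a pair with very high folds. NONMMUT053736 stood at 7.428 RPKM in input and 34.7 RPKM in the pull-down, from 107 and 775 reads, a fold of 4.68 (3.48 to 6.29). NONMMUT053737 stood at 7.312 and 32.9 RPKM, a fold of 4.50 (3.10 to 6.74). NONMMUT053739 stood at 0.307 and 27.1 RPKM, from 2 and 274 reads, a fold of 88.3 (15.6 to 3518). NONMMUT053740 stood at 0.093 and 28.2 RPKM, from 1 and 469 reads, a fold of 303 (26.96 to 6017, with the single read counted as 1 pair). Pull-down levels of the 4 were alike, between 27.1 and 34.7 RPKM, and the inputs were not, although the spans share bases. Whether the counting used strand or exons is not given in the sources used here, so the 4 cannot be assigned to separate transcripts.

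**Figure D3:**
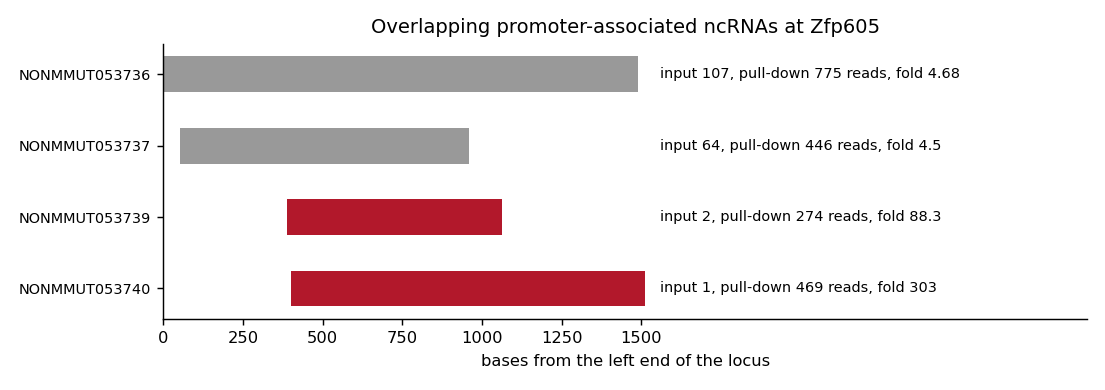
Spans of the 4 overlapping promoter-associated ncRNA entries at Zfp605, in bases from the left end of the locus, with read numbers in input and pull-down and the fold at the right; dark bars are the entries with folds of 88.3 and 303. The dark pair begins 387 and 400 bases into the locus and differs from the grey pair in input reads more than in pull-down reads.

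The promoter of Zfp605 is shown because the ncRNAs with the highest fold are assigned to it. It is chr5:110109842-110110141, plus strand on GRCm38.p6, from RefSeq, with the match to the Zfp143 letters, on the opposite strand, in capitals. The spans above are in mm9 and are not placed on it.
Zfp605: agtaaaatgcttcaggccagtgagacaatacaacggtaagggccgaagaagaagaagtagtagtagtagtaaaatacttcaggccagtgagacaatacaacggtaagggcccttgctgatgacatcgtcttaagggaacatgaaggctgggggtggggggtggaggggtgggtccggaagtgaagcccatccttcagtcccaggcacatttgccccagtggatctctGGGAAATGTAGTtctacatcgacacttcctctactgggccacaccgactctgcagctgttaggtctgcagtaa

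Zfp326, whose protein belongs to a complex that couples transcription elongation to splicing, had an ncRNA at 0.089 RPKM in input and 3.72 RPKM in the pull-down, from 8 and 515 reads, a fold of 41.8 (16.1 to 154). Zfp142 had 1 entry with a fold of 28.2 (7.63 to 238) and another at 3.58 (1.87 to 7.55). The intervals of those 2 entries do not overlap, though they are assigned to the same gene. Zfp787 had a fold of 20 (3.34 to 816) from 2 input reads. Zfp961 had entries at 12.7 (3.35 to 110) and 3.98 (1.67 to 11.5), which overlap in their intervals. Zfp644, a partner of the histone methyltransferases Ehmt1 and Ehmt2, repeated the contrast of Zfp142: a short ncRNA had 9 and 182 reads and a fold of 13.04 (4.85 to 37.0), and 2 longer ones 409 and 1648 reads and a fold of 2.60 (2.22 to 3.04). Zfp746, a repressor also called PARIS, was at 12.9, from an input listed at exactly 1 RPKM.

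An input of exactly 1 RPKM was listed for 7 of 62 Zfp entries, where the background was 18.8%. Such a value is not a whole read number, so these entries, at Zfp51, Zfp503, Zfp532, Zfp672, Zfp746, Zfp777 and Zfp954, were left without an interval. Their folds, between 2.98 and 12.9, equal the pull-down RPKM. Of the 55 entries with an interval, it lay wholly above 1 in 51, where the background was 95.6%. The other 4 were the 3 of Zfp472, with 2 input reads each, and that of Zfp317. It lay wholly above 2.5 in 24 entries, from 17 genes, where the background was 52.3%.

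Zfp646 had the highest level of the promoter ncRNAs at Zfp genes in both libraries, 15.6 RPKM in input and 47.7 RPKM in the pull-down, from 346 and 1639 reads, a fold of 3.06 (2.59 to 3.63). Zfp513 had 3 overlapping entries with inputs of 6.57 to 7.28 RPKM and folds of 4.95 to 5.42, all with intervals above 3. Zfp397 stood at 3.59 and 15.7 RPKM, a fold of 4.37 (2.54 to 8.13). The other genes with an interval above 2.5 were Zfp945 at 6.68, Zfp101 at 7.31, Zfp235 at up to 8.83, Zfp940 at 6.45, Zfp46 at 5.33, Zfp61 at 5.16 in 1 of 2 entries and Zfp451, which encodes a SUMO ligase, at 5.31. For Zfp410, an activator of the Chd4 gene, the fold of 2.55 (1.57 to 4.34) lay just inside the listing limit. Zfp110, Zfp143, Zfp248, Zfp280d, Zfp414, Zfp472, Zfp59, Zfp629, Zfp637, Zfp655, Zfp775, Zfp780b, Zfp850, Zfp932, Zfp236 and Zfp317 had intervals that reached to or below 2.5 and folds up to 8.18. The accession that the table lists as Zfp59 now belongs to Zfp626 in RefSeq, so that value may be of another gene than the one named.

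ChIRP-seq peaks carry a MACS score, which ranks peaks within the list, and a class and nearest gene from the deposited annotation. The 48 Zfp peaks had a median score of 33.3 against 34.3 over all peaks, a median width of 620 against 646 bases and a median distance of 18878.5 bases from the nearest transcription start site (TSS) against 14234.5. A score of 40 or more was reached by 9 of 48, where the background was 24.8%. Within 10 kb of the TSS were 16 of 48, where the background was 42.6%. The Zfp peaks thus had a lower median score and width than the list as a whole and a greater median distance from the TSS, and these differences were not tested. The label "Zfp" of a peak means only that a Zfp start is the nearest one.

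Intergenic sites were the most common class, with 28 of 48 Zfp peaks and a background of 40%. Introns held 12, with a background of 42.6%, exons 2, with 3.76%, and the transcription termination site of Zfp579 held 1, with 1.98%. Of the intronic peaks, both of Zfp750 lie inside Tbcd, that of Zfp212 inside Zfp282 and that of Zfp653 inside Ecsit, so 4 peaks sit within another gene than the one named. The share of such peaks over the whole list was not computed. A repeat was named for 10 peaks, with a background of 23.6%, among them LINE elements at Zfp36l2, Zfp709 and Zfp960 and LTR elements at Zfp213, Zfp652 and Zfp869. Chromosomes 6, 8, 11, 16 and 19 held 17 of the 48, where the background was 62.2%. In the same order, RefSeq has 19, 25, 22, 5 and 3 curated Zfp genes on them, of 403 in all. The count of peaks is therefore not read as a lack of peaks at the Zfp genes of these chromosomes. No Zfp peak was on chromosomes 16 and 19.

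**Figure D4:**
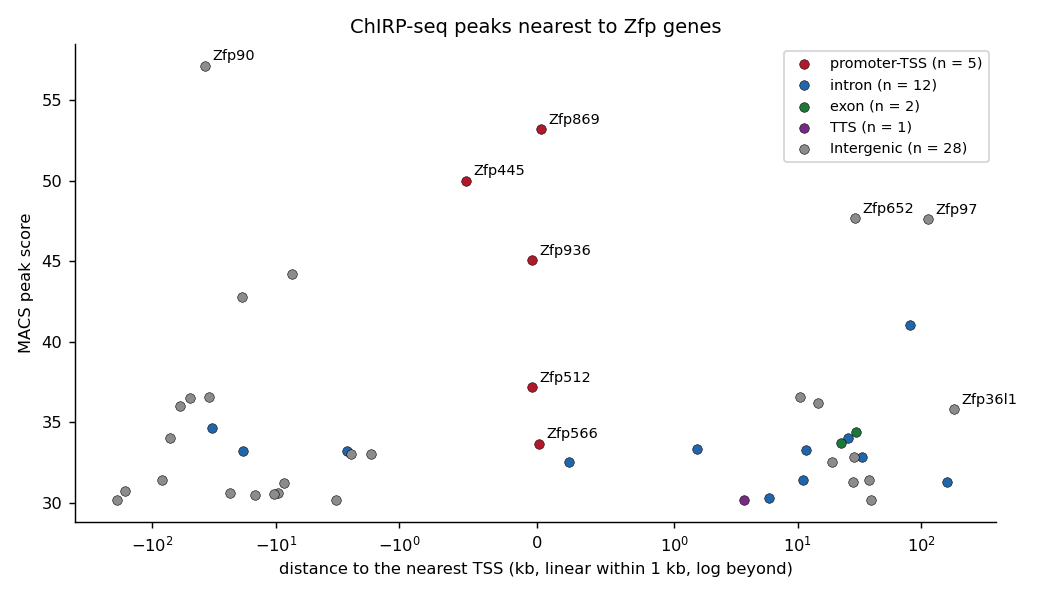
MACS score of each of the 48 Zfp peaks against its distance to the nearest TSS (kb, linear within 1 kb and log beyond), coloured by annotated class. The 5 promoter peaks spread from a score of 33.65 to 53.21, and the highest score, at Zfp90, is intergenic.

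Promoter peaks were found at 5 Zfp genes, 5 of 48 peaks with a background of 9.45%. Zfp869 had a score of 53.21 at 31 bases from the TSS, counted positive along the gene, on mm9 chr8:72239962-72240746. Zfp445, a KRAB zinc finger protein that maintains imprinting, had a score of 50 at -512 bases, on chr9:122775365-122775907. Zfp936 had 45.07 at -33 bases, Zfp512 had 37.18 at -36 bases, and Zfp566 had 33.65 at 15 bases. All but that of Zfp445 thus lay within 36 bases of the TSS, and 3 of the 5 are among the 9 Zfp peaks with a score of 40 or more. The share of all promoter peaks with such a score was not computed, so these scores are not called high for promoter peaks. None of the 5 genes was on either RNA list. Over all genes nearest to a peak of any class, 6.61% were on the mRNA list and 8.80% on the promoter ncRNA list. With 5 genes, nothing is read from this absence. A further peak, of Zfp420, lay in its first intron at 236 bases after the TSS, with a score of 32.53.

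Promoters of Zfp566 and Zfp869 are shown because, of the 5 with a promoter peak, they are the ones with a match to the Zfp143 letters or with several copies of CCAAT. Those of Zfp445, Zfp512 and Zfp936 had 0 matches to the Zfp143 letters, and 1 copy of CCAAT stood in that of Zfp936 and 0 in the other two. They are chr7:30090461-30090760, minus strand, and chr8:69716853-69717152, minus strand, on GRCm38.p6 from RefSeq, while the peaks are in mm9. Capitals mark the match to ACTACA and TCCC in Zfp566, and in Zfp869 4 copies of CCAAT, the letters of the CCAAT box.
Zfp566: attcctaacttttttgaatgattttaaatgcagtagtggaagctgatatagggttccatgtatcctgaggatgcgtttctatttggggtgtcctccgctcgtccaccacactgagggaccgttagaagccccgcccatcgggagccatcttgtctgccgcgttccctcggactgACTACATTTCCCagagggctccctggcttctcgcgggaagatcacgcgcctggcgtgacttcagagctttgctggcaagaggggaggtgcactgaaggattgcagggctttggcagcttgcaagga
Zfp869: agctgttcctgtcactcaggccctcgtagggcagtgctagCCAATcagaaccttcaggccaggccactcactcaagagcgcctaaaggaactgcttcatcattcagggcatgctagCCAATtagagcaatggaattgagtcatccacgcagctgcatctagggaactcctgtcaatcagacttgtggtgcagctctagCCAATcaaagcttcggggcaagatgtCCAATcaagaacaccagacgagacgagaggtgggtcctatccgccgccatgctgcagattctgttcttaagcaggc
CCAAT, on either strand (ATTGG on the other), stood in 37.4% of all promoters of this length and in 47.3% of those of Zfp genes, and 3 or more copies in 3.37% and 4.23%. CTACCTC, which pairs with the seed of let-7d-5p, or GAGGTAG on the other strand, stood in 3.85% of all promoters and in 2.49% of those of Zfp genes. Among listed Zfp genes it stood at Zfp426, Zfp787 and Zfp653, and at none of the 5 with a promoter peak.

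The peak with the highest score, 57.15, was intergenic and lay at -37258 bases from the start of Zfp90, on mm9 chr8:108901394-108902568. At Zfp652, a transcriptional repressor, a peak of 47.67 lay 28858 bases from the TSS, and at Zfp97 one of 47.63 lay 113426 bases from it. Zfp395 had 44.21, Zfp52 had 42.79, and Zfp827, which recruits the NuRD complex, had 41.03 in intron 5 of 14. With 2 peaks each there were 6 Zfp genes: Zfp407, Zfp600, Zfp652, Zfp750, Zfp827 and Zfp869. The 2 CCCH genes on the list, Zfp36l1 and Zfp36l2, had no promoter peak. The peak nearest to Zfp36l1 lay 183368 bases from the TSS with a score of 35.79, and that of Zfp36l2 19079 bases from it with 32.53. Peaks over 100 kb from the TSS were 5, at Zfp36l1, Zfp97, Zfp407, Zfp618 and Zfp960. Neither this count nor that of genes with 2 peaks was made over the whole list, so neither is called high or low. Further genes, with scores from 30.14 to 36.59, were Zfp39, Zfp41, Zfp169, Zfp213, Zfp219, Zfp358, Zfp389, Zfp438, Zfp541, Zfp579, Zfp609, Zfp612, Zfp664, Zfp652os, Zfp709, Zfp770 and Zfp938.

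No Zfp gene was on all 3 lists, 7 were on 2 and 112 on 1. Zfp143 and Zfp688 were on both RNA lists, which is 4.65% of the Zfp genes on the mRNA list and 4.88% of those on the promoter ncRNA list. Over all genes those shares were 9.41% and 8.74%. Zfp385c and Zfp750 were on the mRNA list and near a peak, and Zfp280d, Zfp644 and Zfp746 were on the promoter ncRNA list and near a peak. These make up 4.65% and 4.76%, and 7.32% and 7.14%, of the Zfp genes on each list. Over all genes they were 14.0% and 6.61%, and 17.3% and 8.80%. The 3 lists thus held largely separate Zfp genes. The 2 RNA lists come from the same 2 libraries.

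Zfp688 had unequal folds on the 2 RNA lists. Its mRNA, on mm9 chr7:134562481-134565548, had a fold of 17.4 (10.9 to 29.6). The ncRNA assigned to its promoter, which spans nearly the same bases, stood at 2.57 RPKM in input and 13.3 RPKM in the pull-down, from 77 and 619 reads, a fold of 5.19 (3.67 to 7.36). The 2 intervals do not overlap, although the spans do. Whether the same reads were counted in both tables is not given in the sources used here. For Zfp143 the ncRNA ends 888 bases before the mRNA begins. It stood at 1.96 and 5.36 RPKM, a fold of 2.74 (1.76 to 4.42), beside 2.84 for the mRNA.

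Where a Zfp gene was on the ncRNA list and near a peak, the distance between the 2 was 3086 bases at Zfp280d, 6778 bases at Zfp644 and 34521 bases at Zfp746. At Zfp385c a peak of score 30.14 lay 2945 bases from the listed mRNA, whose fold of 3.57 (1.17 to 13.5) rested on 4 and 24 reads. For Zfp750 the nearer of 2 peaks lay 17015 bases from the mRNA. The peaks at Zfp389 and Zfp541, a gene of meiosis, overlapped a listed ncRNA, at 1 RPKM in input and 5.61 and 6.35 RPKM in the pull-down. Over all Zfp peaks, 6 of 48 lay within 10 kb of a listed ncRNA, where the background was 12.4%, and 1 of 48 within 10 kb of a listed mRNA, where it was 6.77%. Closeness of peaks and ncRNAs at Zfp genes was thus near that of the whole list.

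Zfp830 shows that the nearest-gene label can miss a Zfp gene. Its mRNA span, on mm9 chr11:82577847-82581124, overlaps a promoter peak of score 54.06 that is assigned to Cct6b, a chaperonin subunit whose start lies 122 bases away. The peak, on chr11:82576964-82578373, scores above every Zfp peak but that of Zfp90. In all, 3 of 53 Zfp transcripts lay within 10 kb of a peak, where the background was 15.1%. Of Zfp mRNA spans, 7 of 53, from Zfp426, Zfp622, Zfp688 and Zfp942, overlapped an ncRNA candidate, where the background was 21.1%. Of promoter ncRNAs at Zfp genes, 1 of 62 overlapped a listed mRNA, where the background was 10.1%, and 5 of 62, at Zfp280d, Zfp644 and Zfp940, lay within 10 kb of a peak, where it was 13.8%.

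Zfp genes often lie next to each other. Of the Zfp genes on the mRNA list, 26 of 43 (60.5%) had another Zfp gene as their neighbour in RefSeq order, as had 22 of 41 (53.7%) on the promoter ncRNA list, 11 of 40 near a peak (27.5%) and 212 of 395 curated Zfp genes (53.7%). The share near peaks was the lowest of the 4, and the difference was not tested. Neighbouring pairs on the same list were Zfp2 with Zfp354b, Zfp418 with Zfp772, and Zfp809 with Zfp599 among mRNAs. Among promoter ncRNAs they were Zfp777 with Zfp746 and Zfp780b with Zfp850, and among peaks Zfp960 with Zfp97. The share of such pairs over all listed genes was not computed, so their number is not called high or low. Chromosome 7, which holds 93 curated Zfp genes, had 11 genes on the mRNA list, 13 on the promoter ncRNA list and 5 near a peak. Chromosome 13, with 38, had 6, 0 and 2. Over all chromosomes together, genes on both RNA lists made up 4.65% of the Zfp genes and 9.41% of all genes on the mRNA list. This share was not computed by chromosome. Chromosome 5, with 19, had 0, 6 and 3. Listed genes of all kinds were not counted on chromosomes 5, 7 and 13, so these numbers are not read as a trait of Zfp genes.

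**Figure D5:**
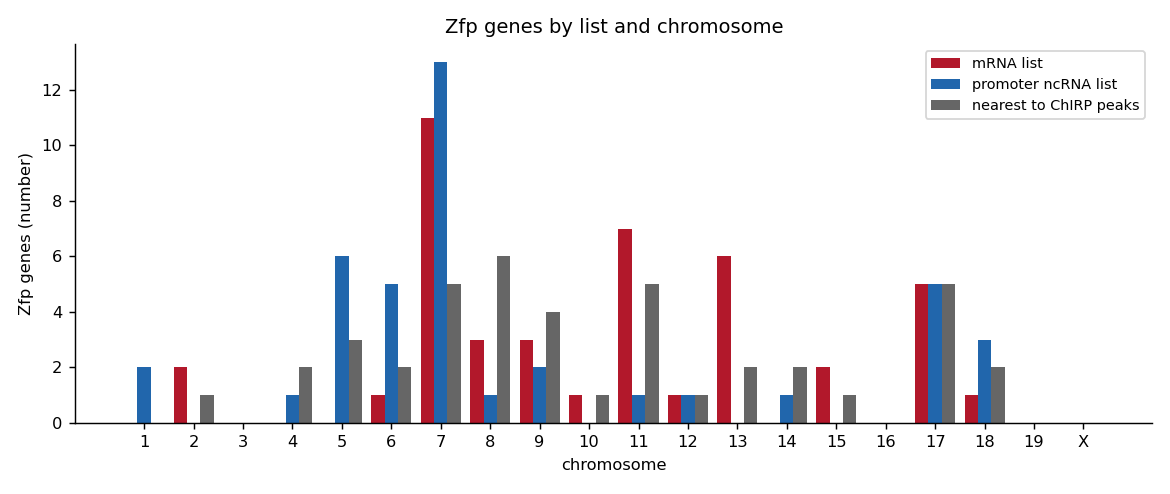
Number of Zfp genes on each list by chromosome, with bars for the mRNA list, the promoter ncRNA list and the nearest genes of ChIRP peaks. Chromosome 7 leads both RNA lists with 11 and 13 genes, chromosome 13 has 6 mRNA genes and no promoter ncRNA gene, and chromosome 8 leads the peaks with 6 genes. Listed genes of all kinds were not counted by chromosome.

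Partners through which KRAB zinc finger proteins silence chromatin were taken as a list of 33 genes. The mRNA list held 2 of them, Cbx3 and Smarcad1, the promoter ncRNA list 5 and the ChIRP list 6, where the shares of all curated genes were 5.48%, 5.86% and 11.4%. Trim28 and the histone methyltransferase Setdb1 were on none. Cbx3, which encodes the heterochromatin protein HP1 gamma, was on all 3, with an mRNA fold of 2.86 (2.22 to 3.74), an ncRNA fold of 2.66 (2.02 to 3.56) and an intronic peak of score 32.66. The other ncRNAs, at Fam208a, Hdac1, Mbd3 and Mta2, had folds of 2.53 to 2.82, with that of Mbd3, the lowest, from an input listed at exactly 1 RPKM. All were below the Zfp median of 5.00. Among peaks, Morc3 had 4. That with a score of 180.48 was classed as intronic but lay at -42822 bases from the Morc3 TSS. The intron therefore need not be one of Morc3. The promoter of Morc3 held 1 peak, with a score of 128.81. Dnmt1, the maintenance DNA methyltransferase, had a promoter peak of score 35.69 at -27 bases from its TSS. Atf7ip, Chd4 and Dnmt3b had peaks outside promoters.

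Of 21 decay factors with which the CCCH proteins work, none was on the mRNA list, 4 were on the promoter ncRNA list and 1, Cnot4, was near peaks, beside the same shares of all curated genes (5.48%, 5.86% and 11.4%). Cnot2, a scaffold of the deadenylase complex, had ncRNAs with folds of 44.0 (7.62 to 1759) and 9.88 (4.08 to 31.5). Cnot7, a deadenylase, had 10.2 (5.88 to 18.0) and 5.17 (4.12 to 6.57), Cnot3 had 6.31, from an input listed at exactly 1 RPKM, and Pan3 had 3.42 (2.83 to 4.17).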

How the data were processed

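RNA of MLE-12 cells was sequenced after capture with biotinylated Mirlet7d and as input, and DNA after capture with probes against Mirlet7d. Per the submitters' processing notes, both assays used Bowtie2, SAMtools, HOMER, FastQC and bedtools (2.15 in the pull-down) with genome mm9. The notes add Trimmomatic and Picard 1.119 for RNA and MACS for ChIRP-seq. The step each carried out is not given in the sources used here. The authors deposited RPKM values rounded to 3 decimals, per the file headers, and a fold, the ratio of pull-down to input RPKM. The peak score was deposited by the authors with the peak list, whose lowest value was 30.01, and its scale is not stated.

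Folds were computed from the deposited RPKM and differed from the deposited ratio by at most 0.005. Reads were recovered as RPKM times span and a denominator, the smallest found under which nearly all values used gave whole numbers. With it 100% of the values used lay within 0.15 of a whole number. That closeness was what the search looked for, so it is not a separate check. The 95% intervals are exact Clopper-Pearson intervals of the share of reads in the pull-down, converted to a fold. Reads of ncRNAs were counted as pairs, because 79.6% of the input numbers were even. Recovery and intervals were tested on simulated data. With 1 library per group no test between groups was made, and the intervals compare libraries and not conditions. Background shares count all entries of the same list.

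Named were Zfp genes on 2 or more lists, the 10 largest folds or scores of each list, entries with an interval above 2.5, promoter peaks, CCCH genes and listed members of 3 gene lists, with the rest by name and range. Members and lists were chosen with earlier results of these data known. Symbols were matched to RefSeq tables of GRCm38.p6 (119 of 119 found), which were used for names, gene order and promoters, and list coordinates are those of mm9. Python 3.11.15, pandas 2.3.3, scipy 1.17.1 and matplotlib 3.10.9 were used. Alternatives were other limits for fold, score and distance, symbols by accession, single reads for pairs, and entries left out by input or repeat.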

Additional observations from a re-analysis of the deposited data

How the results depend on the processing

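Counts of Zfp entries followed the limits chosen. At a fold of 5 or more there were 31 mRNA transcripts and at 20 or more there were 4, against 11 at 10. For promoter ncRNAs the counts were 31 and 5, against 8. The Zfp folds whose interval lay above the limit numbered 88 for a limit of 1, against 45 for 2.5. Within 50 kb of the TSS there were 39 peaks, against 16 within 10 kb. A score of 35 or more was reached by 16 peaks and 50 or more by 3, against 9 at 40. These counts move by construction. The other alternatives that were run stayed within 1.5 times the value given: 125 genes with symbols taken from the accession, 52 intervals with ncRNA reads counted singly, and median folds of 5.21 for mRNAs and 5.31 for ncRNAs with the highest entry per gene. A planned search for C2H2 patterns in the proteins was not run, for want of a protein table. No paired analysis was possible because each group has 1 library. Folds with 1 or 2 input reads are limited by depth, and no fold has a replicate check.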
